A study of Mus musculus with 80 samples.

Results

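The glucocorticoid-responsive genes described here are Fkbp5, Sgk1, Tsc22d3, Zbtb16, Cdkn1a, Cebpb, Cebpd, Nfkbia, Mt1 and Mt2, 10 of the 27179 genes of the deposited count table. Their expression was followed in 77 RNA-seq libraries from 5 brain regions of C57BL/6 female mice (C57BL/6J in the study's methods). The list was chosen by a value from these same libraries, the higher level of Cebpb in the primiparous cerebellum, so every comparison of the states in the cerebellum is given below as a description only. Levels are given as CPM, the count scaled to the library total. All 10 genes passed the filter on low values (5 CPM or more, in 8 libraries or more) and are among the 13016 genes tested.

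The study compared 8 virgin females with 8 primiparous females. For the primiparous group, 1 female of 8 weeks was kept with 1 male for 2 weeks, gave birth to and weaned 1 litter, and was killed 3 weeks after weaning according to the labels, while the study's methods give a longer interval. The virgins were matched in age, were housed in groups and met no male, so that contact with a male, mating, pregnancy and nursing cannot be told apart. Each library came from 1 region of 1 animal, and the hypothalamus, cerebellum, hippocampus, neocortex and amygdala of the same animals were used, the hypothalamus whole and the others from the left side. There were 8 libraries per state in the hypothalamus and the neocortex, and 7 virgin and 8 primiparous libraries in each of the cerebellum, hippocampus and amygdala. All brains were collected on 1 day, within a short window. The order in which the animals were taken is not given in the labels.

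Glucocorticoids, corticosterone in the mouse, enter the brain from the blood and bind the glucocorticoid receptor (Nr3c1) and, with higher affinity, the mineralocorticoid receptor (Nr3c2). The bound receptors move to the nucleus and raise the transcription of genes such as those listed here, and the hormone follows a daily rhythm and rises with stress. Several of the products act back on the response: Fkbp5 is a co-chaperone that lowers the affinity of the receptor for the hormone, Tsc22d3 (also called GILZ) carries anti-inflammatory effects of glucocorticoids, and Nfkbia holds the NF-kappaB factors in the cytoplasm. Most of the genes also answer to other signals, for example Mt1 and Mt2 to zinc, Cdkn1a to p53, and Cebpb and Cebpd to cytokines.

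The libraries held 7959192 to 37871854 counts, with a median of 17623886. Of 17 genes that mark the regions, 16 had their highest mean in the region they mark; Rspo2, on the amygdala list, was highest in the hippocampus. The hippocampus library of primiparous animal 413 carried the cerebellar gene Gabra6 at 54.3 CPM, against at most 1.77 in the other hippocampus libraries and a mean of 636 in the cerebellum, and the comparisons of the 10 genes in the hippocampus are given with and without it. The animal numbers fall into 2 series, of 3 and of 4 digits, which are split unevenly between the states: 2 virgin and 7 primiparous animals have 3 digits. What the series stands for is not given in the labels, and results that change when it enters the fit are named. Because whole tissue was sequenced, fewer cells of a type and less RNA per cell cannot be told apart.

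Promoter windows from RefSeq (GRCm38.p6, 250 bases before to 50 after a transcription start) were listed for 8 of the 10 genes, 16 windows in all. AGAACA, a hexamer bound by the glucocorticoid receptor, was searched on both strands and was present in 4 windows, 3 of Sgk1 and 1 of Tsc22d3, while 19% of all 32851 promoter windows of this length hold it. One Sgk1 start has 3 copies, a number reached by 0.31% of all windows, and 2 of these lie close together in opposite orientation. The kappa B letters (GGG, any 5 bases, CC) were in 10 of the 16 windows and in 50.8% of all windows. The core of the metal response element, TGCGCNC, was in 1 window each of Sgk1, Mt1 and Mt2 and in 15.4% of all, TTGCNNAA (the C/EBP letters) in 1 window each of Sgk1 and Mt2 and in 10.8% of all, and TGACGTCA (the cyclic AMP response element) in no window of these genes and in 1.79% of all. The stretches shown are the 250 bases before a start, 5' to 3' on the strand of the gene, with the named letters in capitals, for genes whose levels are compared animal by animal below. They are Sgk1 on the plus strand (chr10:21993640-21993889, AGAACA in capitals), Tsc22d3 on the minus strand (chrX:140600523-140600772, AGAACA in capitals), Nfkbia on the minus strand (chr12:55492648-55492897, kappa B letters in capitals) and Mt2 on the plus strand (chr8:94172368-94172617, TGCGCNC in capitals). A match describes the letters in the window and not a bound site.
Sgk1: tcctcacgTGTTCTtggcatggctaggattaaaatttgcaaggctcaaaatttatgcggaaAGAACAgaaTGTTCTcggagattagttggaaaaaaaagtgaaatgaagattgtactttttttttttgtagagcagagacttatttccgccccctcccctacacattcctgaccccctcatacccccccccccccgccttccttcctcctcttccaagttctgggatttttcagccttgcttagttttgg
Tsc22d3: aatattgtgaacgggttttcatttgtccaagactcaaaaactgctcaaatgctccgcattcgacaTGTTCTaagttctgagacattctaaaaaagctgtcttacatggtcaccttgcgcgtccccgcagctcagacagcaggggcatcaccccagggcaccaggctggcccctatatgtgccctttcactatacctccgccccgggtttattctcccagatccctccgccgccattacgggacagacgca
Nfkbia: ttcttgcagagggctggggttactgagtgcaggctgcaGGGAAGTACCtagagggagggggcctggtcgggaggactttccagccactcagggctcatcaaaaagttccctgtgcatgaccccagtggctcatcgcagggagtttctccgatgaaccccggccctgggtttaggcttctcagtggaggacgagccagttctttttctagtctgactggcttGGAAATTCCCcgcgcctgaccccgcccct
Mt2: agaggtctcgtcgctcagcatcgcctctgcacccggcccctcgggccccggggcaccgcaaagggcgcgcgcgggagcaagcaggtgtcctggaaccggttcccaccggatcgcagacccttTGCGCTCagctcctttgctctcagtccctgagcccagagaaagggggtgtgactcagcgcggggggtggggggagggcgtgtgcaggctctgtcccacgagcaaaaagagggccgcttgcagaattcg

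The level of each gene was first compared between regions, with both states together. Of the 40 steps between neighbouring regions in the order of the mean CPM, 20 passed an adjusted p of 0.05 in an edgeR fit of all 10 groups, and 26 did with the animal as a block. Without the hippocampus library of animal 413 the same steps passed in both fits. Differences between regions were common among all genes in the same fit: 81.1% passed between hypothalamus and cerebellum, 80.2% between cerebellum and amygdala, 79.9% between cerebellum and neocortex, 78.7% between cerebellum and hippocampus, 77.7% between hypothalamus and neocortex, 73% between hypothalamus and hippocampus, 71% between hypothalamus and amygdala, 67% between hippocampus and neocortex, 62.5% between neocortex and amygdala, and 58.7% between hippocampus and amygdala. These shares are for fixed pairs of regions, whereas each of the 40 steps joins regions that are neighbours in the order of that gene. The count of steps can therefore not be compared with these shares. The range of the regional means on the log2(CPM + 4) scale had a median of 1.22 over the 10 genes and 0.65 over all genes tested. The region with the highest mean was the same in both states for 9 of the 10 genes, Cdkn1a being the exception.

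**Figure D1:**
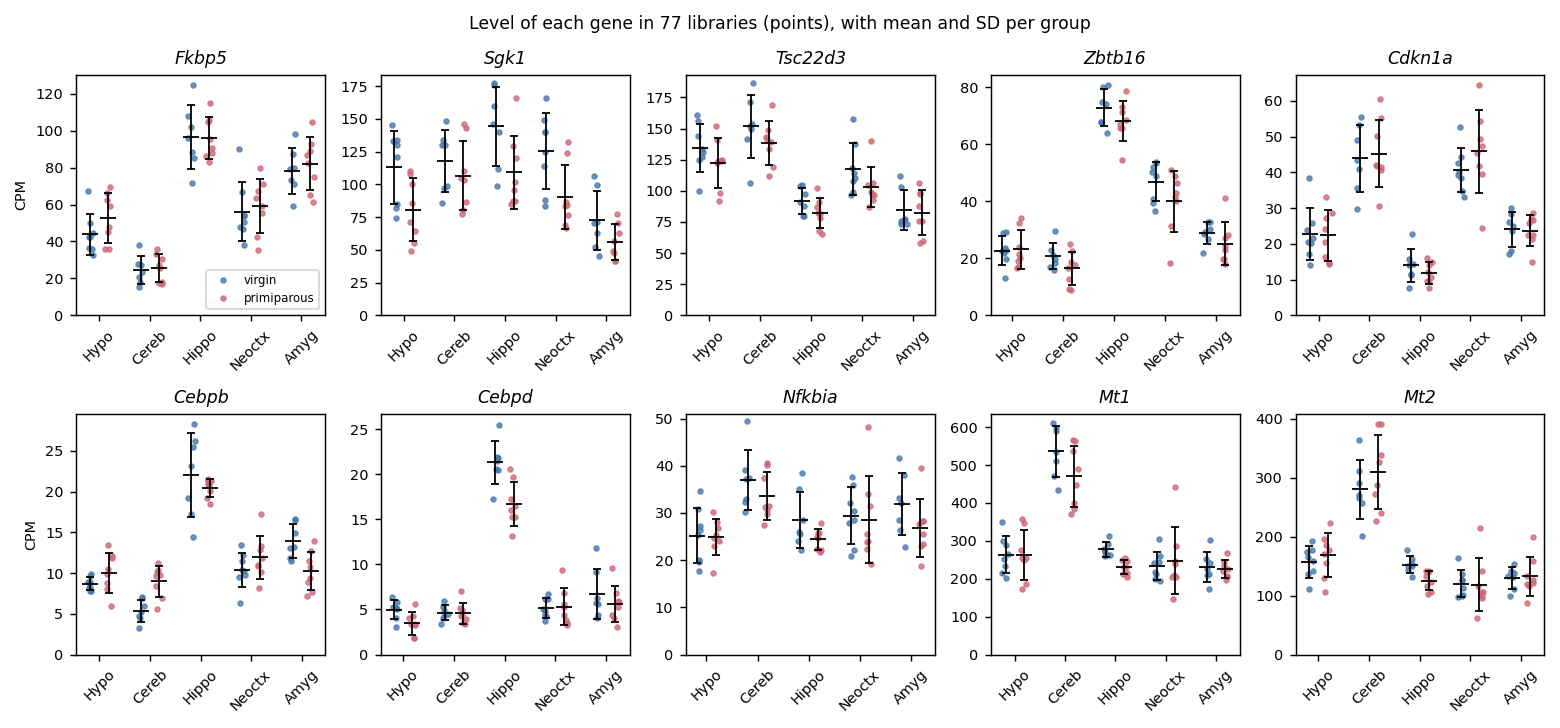
CPM of the 10 genes (y axes, each from 0) in the 5 regions (x axes), with 1 point per library, virgin in blue and primiparous in red, and the mean with its SD in black. Fkbp5, Zbtb16, Cebpb and Cebpd stand highest in the hippocampus, and Mt1 and Mt2 in the cerebellum.

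Fkbp5 (chr17:28399094-28517527, minus strand) had its highest level in the hippocampus and its lowest in the cerebellum. Over the hippocampus libraries it ran from 71.5 to 125 CPM with a median of 95.4, and over the cerebellum libraries from 15.2 to 38.3 with a median of 25.9. The groups of libraries did not overlap, and the log2 difference was 2.09 (SE 0.127, edgeR adjusted p = 8.25e-25). Between them came the amygdala (mean 80.4 ± 13.3 CPM, SD, n = 15), the neocortex (57.8 ± 14.9, n = 16) and the hypothalamus (48.3 ± 12.6, n = 16). Each of the 4 steps in this order passed the test, the narrowest being that from hippocampus to amygdala (log2 difference 0.27, SE 0.12, edgeR adjusted p = 0.0487).

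Zbtb16 (chr9:48654297-48836222, minus strand), which encodes a zinc finger repressor, followed a similar order. Its level ran from 54.6 to 80.8 CPM in the hippocampus (median 68.5; from 64 CPM without animal 413) and did not exceed 53.8 CPM in any library of another region. The neocortex (43.5 ± 9.34 CPM, SD, n = 16), amygdala (26.9 ± 6.07, n = 15), hypothalamus (22.9 ± 5.77, n = 16) and cerebellum (18.4 ± 5.58, n = 15) followed, and all 4 steps passed the test. The mineralocorticoid receptor Nr3c2, which no rule here used, was also highest in the hippocampus, at a mean of 146 CPM in virgin and 143 CPM in primiparous libraries against 18.3 to 33.6 CPM in the other groups, whereas Nr3c1 lay between 95.4 and 134 CPM in all 10 groups.

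The C/EBP factors showed the hippocampus apart from the other regions as well. Cebpd (chr16:15887286-15891031, plus strand) ran from 13.2 to 25.5 CPM in the hippocampus, and its highest level elsewhere was 11.8 CPM. The hippocampus exceeded the amygdala, which came next, by 1.6 on the log2 scale (SE 0.135, edgeR adjusted p = 8.52e-18), and none of the other 3 steps passed the edgeR test (means of 6.15 to 4.22 CPM, log2 differences of 0.28, 0.29 and 0.15 with SE of 0.137 to 0.142). With limma-voom the step from amygdala to neocortex passed (adjusted p = 0.0485), and with DESeq2 that from neocortex to cerebellum did (adjusted p = 0.0403). Cebpb (chr2:167688915-167690418, plus strand) ran from 14.4 to 28.3 CPM in the hippocampus and reached 17.2 CPM elsewhere, with the next highest mean in the amygdala (12 ± 2.88 CPM, SD, n = 15). Its levels in amygdala and neocortex did not differ beyond their spread (log2 difference 0.13, SE 0.103, edgeR adjusted p = 0.266), while hypothalamus and cerebellum were lower at each step. Part of each C/EBP gene lies under exons of a gene on the opposite strand, 312 bases of Tmem189 for Cebpb and 562 bases of Spidr for Cebpd. The same holds for 432 bases of Mt2 (Gm45774) and 273 bases of Cdkn1a (AC167363.2). Whether counting used the strand is not given in the sources used here, so reads of such partners cannot be told apart.

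Sgk1 (chr10:21882184-21999903, plus strand), a kinase that acts on ion channels and transporters, was also highest in the hippocampus (85.3 to 177 CPM, median 120, and from 87.2 CPM without animal 413) and lowest in the amygdala (41.2 to 106 CPM, median 62.8), but with overlapping libraries. The step from hippocampus to cerebellum (log2 difference 0.3, SE 0.131) and that from hypothalamus to amygdala (0.45, SE 0.132) passed the test. Cerebellum and neocortex were not separated. Neocortex and hypothalamus were not separated in the edgeR fit without the block (adjusted p = 0.0511). They were with the animal as a block (edgeR adjusted p = 2.04e-05), with limma-voom and with DESeq2.

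Tsc22d3 (chrX:140539528-140600659, minus strand), Cdkn1a, Nfkbia, Mt1 and Mt2 were instead highest in the cerebellum. Tsc22d3 ran there from 106 to 187 CPM (median 143), and the hippocampus (86.7 ± 12.1 CPM, SD, n = 15) and amygdala (83.3 ± 16.6, n = 15) were lowest and not separated. Nfkbia (chr12:55489410-55492647, minus strand) was the most even of the 10 genes, with regional means of 25.1 to 35.2 CPM and no neighbouring step past the test in the edgeR fit of all 10 groups. With the animal as a block, the steps from cerebellum to amygdala (edgeR adjusted p = 0.0284) and from hippocampus to hypothalamus (0.00171) passed. The step from hippocampus to hypothalamus also passed with DESeq2 and in the fit without the filter on low values. For Cdkn1a (chr17:29090976-29100727, plus strand), the p21 inhibitor of cyclin-dependent kinases, cerebellum (44.6 ± 9.12 CPM, SD, n = 15) and neocortex (43.2 ± 9.36, n = 16) stood together above amygdala and hypothalamus, and the hippocampus was lowest at 7.71 to 22.8 CPM. The hippocampus and cerebellum libraries did not overlap for this gene, in the direction opposite to Fkbp5 and Zbtb16.

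The metallothioneins, small proteins that bind zinc, lie next to each other, Mt2 at chr8:94172664-94173568 and Mt1 at chr8:94179082-94180327 on the plus strand. Mt1 ran from 371 to 612 CPM in the cerebellum (median 511), and exceeded the hypothalamus, the region next in order, by 0.94 on the log2 scale (SE 0.0937, edgeR adjusted p = 1.13e-14). Mt2 ran from 201 to 392 CPM in the cerebellum (median 287) and exceeded the hypothalamus by 0.86 (SE 0.107, edgeR adjusted p = 3.86e-11). None of the 3 further steps of either gene passed without the block. With the animal as a block the Mt2 step from amygdala to neocortex passed (edgeR adjusted p = 0.0277, against 0.176 without it). The summed level of 6 astrocyte markers was also highest in the cerebellum, at 4523 to 5588 CPM, against 1869 to 4073 CPM over the libraries of the other regions, and its part in the metallothionein levels was not tested. For 3 steps (cerebellum to neocortex for Sgk1 and Cdkn1a, hypothalamus to hippocampus for Mt1) the fitted difference, which uses normalized library sizes, ran against the order of the CPM, and none of these passed the test.

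Per kilobase of exon, Mt2 and Mt1 were the most abundant of the genes (mean of 203 to 503 and of 183 to 402 CPM per kilobase over the regions), and Cebpd the least in 4 regions (1.13 to 1.64). In the hippocampus the lowest was Cdkn1a, at 3.61 CPM per kilobase, followed by Cebpd at 5.03. Fkbp5 reached 10.2 CPM per kilobase in the hippocampus against 25.6 for Sgk1 and 20 for Tsc22d3.

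The states were then compared within each region, which asks whether reproductive experience is followed by a lasting difference in these genes. In the hypothalamus, 0 of the 10 genes passed an adjusted p of 0.05 with edgeR, where 22.6% of all genes did, and 2 of the 10 had an unadjusted p under 0.05, where 37.1% of all genes did. The 22.6% are 2939 genes, which became 385 with a correction for gene length and GC content and 3 with the animal number series in the fit. The median log2 difference, primiparous over virgin, was -0.03 over the 10 genes and 0.014 over all genes. The 2 genes with an unadjusted p under 0.05 were Sgk1 and Cebpd, both lower in primiparous animals.

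Sgk1 in the hypothalamus had a lowest, median and highest level of 74.4, 126 and 145 CPM in the 8 virgin libraries and of 48.8, 78.8 and 110 CPM in the 8 primiparous libraries. The ranges overlapped, and all 8 primiparous libraries lay below the virgin mean. The log2 difference was -0.51 (SE 0.199, edgeR adjusted p = 0.0787). Cebpd had 3.03, 5.15 and 6.36 CPM in virgin and 1.79, 3.41 and 5.6 CPM in primiparous libraries, from 27 to 136 counts per library. Its ranges also overlapped, 7 of 8 primiparous libraries lay below the virgin mean, and the log2 difference was -0.56 (SE 0.207, edgeR adjusted p = 0.0517). With limma-voom, the test named in the study's methods, both passed (Sgk1 -0.51, adjusted p = 0.0338, and Cebpd -0.66, adjusted p = 0.0323). Of the 13016 genes tested, 2571 passed with limma-voom in the hypothalamus. With the animal number series in the edgeR fit, the differences were -0.56 and -0.57 and the adjusted p 0.328 and 0.305. Summed blood markers went from 25.2 to 53.5 CPM in virgin and from 32 to 103 CPM in primiparous hypothalamus libraries, with 2 of 3 tested markers past the threshold, and their part in these values was not tested. The other 8 genes had log2 differences of -0.16 to 0.23, and for Fkbp5, the highest of these, the ranges were 32.5 to 67.6 CPM in virgin and 35.9 to 69.5 CPM in primiparous libraries.

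**Figure D2:**
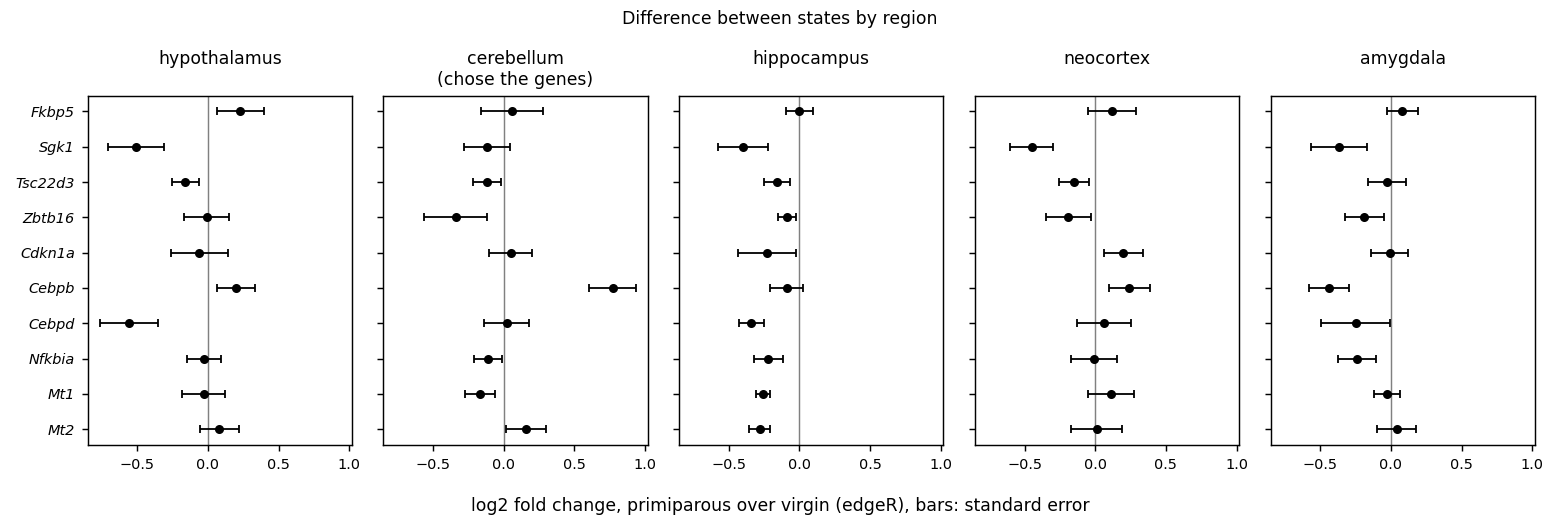
Log2 fold change of primiparous over virgin animals from edgeR (x axes) for the 10 genes (rows) in each region (panels), with bars of 1 standard error. Sgk1 lies left of 0 in all 5 panels, from -0.51 to -0.12, and in the cerebellum panel, which chose the genes, Cebpb stands at 0.77.

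Sgk1 had a negative log2 difference in each of the 5 regions. In the neocortex it ran from 83.6 to 166 CPM in virgin (median 132) and from 66.6 to 132 CPM in primiparous libraries (median 83.9), a log2 difference of -0.45 (SE 0.154, edgeR unadjusted p = 0.00892, adjusted p = 0.479). In the hippocampus the difference was -0.4 (SE 0.174, and -0.35 without animal 413), in the amygdala -0.37 (SE 0.197), and in the cerebellum -0.12 (SE 0.161, as a description). Of the primiparous libraries, 8 of 8 in the hypothalamus, 7 of 8 in the hippocampus, neocortex and amygdala, and 6 of 8 in the cerebellum lay below the virgin mean. These regions come from the same animals and are not independent of each other.

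The regions other than the cerebellum were therefore also averaged within each animal, a comparison chosen after the data were seen. On the region-centred log2(CPM + 4) scale, Sgk1 ran from -0.27 to 0.57 over the 8 virgin animals (median 0.34) and from -0.58 to 0.3 over the 8 primiparous animals (median -0.25). The ranges overlapped, and 7 of 8 primiparous animals lay below the virgin mean. The log2 difference was -0.42 (SE 0.133, limma unadjusted p = 0.00473, adjusted p = 0.239). Cebpd differed by -0.17 (SE 0.0556, limma adjusted p = 0.239) and the other 8 genes by -0.12 to 0.12. With limma 0% of all genes passed this test, and 14.4% had an unadjusted p under 0.05.

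In the hippocampus 0% of all genes passed with edgeR, so none of the 10 did, and 7.38% of all genes and 5 of the 10 had an unadjusted p under 0.05. Limma-voom passed 0 genes here as well, and DESeq2 passed 12, Mt1 among them. All 10 genes had a log2 difference below 0, with a median of -0.22, where 50.1% of all genes lay below 0; that of Fkbp5 was 0 to the second decimal (virgin mean 96.6 ± 17.2 CPM, SD, n = 7, primiparous mean 96.1 ± 11.3, n = 8). Without the library of animal 413, 9 of the 10 lay below 0 with a median of -0.2, and 3 had an unadjusted p under 0.05. Several of the 10 genes vary together between animals, so their common direction is not 10 separate observations.

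Mt1 in the hippocampus had a lowest, median and highest level of 261, 271 and 312 CPM in the 7 virgin libraries and of 206, 231 and 254 CPM in the 8 primiparous libraries. The 2 states did not overlap, which held for 0.0845% of all genes in this region and for none of the other 9. The log2 difference was -0.26 (SE 0.0503, edgeR unadjusted p = 2.57e-05, adjusted p = 0.167, DESeq2 adjusted p = 0.00316), and it was also -0.26 without animal 413 (edgeR adjusted p = 0.119). Mt2 went from 131 to 178 CPM in virgin and from 103 to 142 CPM in primiparous libraries, with a log2 difference of -0.28 (SE 0.0739, edgeR adjusted p = 0.564), and of -0.25 without animal 413 (edgeR adjusted p = 0.31). Cebpd went from 17.3 to 25.5 CPM in virgin and from 13.2 to 20.6 CPM in primiparous libraries, with a log2 difference of -0.34 (SE 0.0884, edgeR adjusted p = 0.517), and of -0.38 without animal 413 (edgeR adjusted p = 0.171). For both, all 8 primiparous libraries lay below the virgin mean although the ranges overlapped. The summed astrocyte markers were 2437 to 2883 CPM in virgin and 2332 to 2960 CPM in primiparous hippocampus libraries. In the same order, summed microglia markers were 274 to 305 and 252 to 305 CPM. Summed blood markers were 21.9 to 40.5 and 22.1 to 86.9 CPM, and summed choroid plexus markers 61.1 to 3547 and 60.5 to 3942 CPM. The part of these in the Mt1, Mt2 and Cebpd levels was not tested.

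In the amygdala and the neocortex edgeR also passed 0% of all genes. In the amygdala 11.9% of all genes and 1 of the 10 had an unadjusted p under 0.05. That gene was Cebpb, with 11.5, 13.2 and 16.6 CPM (lowest, median and highest) in 7 virgin and 7.24, 10 and 13.9 CPM in 8 primiparous libraries. All 8 primiparous libraries lay below the virgin mean, the ranges overlapped, and the log2 difference was -0.44 (SE 0.142, edgeR adjusted p = 0.253); with a correction for gene length and GC content it was -0.18 (edgeR adjusted p = 0.73). Limma-voom passed 0 genes in the amygdala. DESeq2 passed 54 genes there and none of the 10. In the neocortex 9.8% of all genes and only Sgk1 of the 10 had an unadjusted p under 0.05, and DESeq2 and limma-voom passed 0 genes. The 9.8% are 1276 genes, which became 2772 without primiparous 413, 798 without primiparous 4493 and 806 without virgin 4491. The ranges of the states overlapped for all 10 genes in both regions and in the hypothalamus, where 0.146% (amygdala), 0.0154% (neocortex) and 0.884% (hypothalamus) of all genes did not overlap.

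In the cerebellum, the contrast that chose the list, Cebpb was the 1 gene of the 10 past the threshold, with 0.707% of all genes past it (92 genes, and 6 without virgin 4486, 8 without virgin 409 and 903 without primiparous 4493). It had 3.27, 5.17 and 7.01 CPM in 7 virgin and 5.59, 9.67 and 11.3 CPM in 8 primiparous libraries, from 55 to 303 counts each. The ranges overlapped, as they did for the other 9 genes (0.323% of all genes did not overlap), and all 8 primiparous libraries lay above the virgin mean. The log2 difference was 0.77 (SE 0.164), and 0.42 (SE 0.186) with the animal number series in the fit, where Cebpb was no longer past the threshold. Cebpb also missed it in 7 of 15 fits with 1 library left out, those without primiparous 413, 414 or 427 or virgin 409, 4486, 4489 or 4491. The next largest was Zbtb16, with 15.9 to 29.6 CPM in virgin and 9.04 to 25.1 CPM in primiparous libraries and a log2 difference of -0.34 (SE 0.222). Summed microglia markers went from 83.3 to 97 CPM in virgin and from 96.8 to 122 CPM in primiparous cerebellum libraries, with C1qa and C1qb past the threshold among 6 markers, and summed oligodendrocyte markers from 4125 to 5580 and from 5069 to 7111 CPM. Summed blood markers went from 41.6 to 61.3 CPM in virgin and from 45.5 to 151 CPM in primiparous cerebellum libraries. Summed fibroblast and meninges markers went from 74.9 to 92.3 and from 91.5 to 121 CPM, with Col3a1 past the threshold. The astrocyte marker Aqp4 also passed (log2 difference 0.3), while the summed astrocyte markers were 4523 to 5500 and 4639 to 5588 CPM. The part of these in the Cebpb level was not tested.

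Whether a difference between the states itself differed between regions was asked of the hypothalamus against each other region. Against the amygdala, 1 of the 10 genes passed, where 18.2% of all genes did (2373 genes, and 93 with the animal as a block and a correction for gene length and GC content). Cebpb went from 7.82 to 9.84 CPM in virgin and from 5.91 to 13.5 CPM in primiparous hypothalamus libraries (log2 difference 0.2, SE 0.135), against -0.44 in the amygdala, and the difference of the differences was 0.64 (SE 0.199, edgeR adjusted p = 0.0225). Leaving out each animal in turn, which was added after the data were seen, gave 0.54 to 0.75, and Cebpb missed the threshold without primiparous 421, primiparous 4493 or virgin 4488 (highest edgeR adjusted p = 0.0664). With the animal as a block it was 0.61 (SE 0.211, edgeR adjusted p = 0.0536), and with the block and a correction for gene length and GC content 0.14 (edgeR adjusted p = 0.81). Against the hippocampus, 0 of the 10 passed with edgeR, where 17.2% of all genes did (2243, and 66 with the block and the correction), and Mt2 had an unadjusted p under 0.05. With the block Mt2 passed (0.32, SE 0.093, edgeR adjusted p = 0.0336), and with the block and the correction for gene length and GC content it did not (0.13, edgeR adjusted p = 0.462). Without the hippocampus library of animal 413, Mt2 differed by 0.37 with the block (edgeR adjusted p = 0.0156) and by 0.31 without it (edgeR adjusted p = 0.184). Against the neocortex 0% of all genes passed with edgeR, with or without the block, 336 had an unadjusted p under 0.05, and limma-voom also passed 0. The 336 became 649 without primiparous 418 and 677 without primiparous 427. Of the 10 genes only Cebpd had an unadjusted p under 0.05 (-0.62, SE 0.288, edgeR unadjusted p = 0.0395, and 0.00968 with the block). Against the cerebellum, 0 of the 10 and 15.5% of all genes passed. With the block Sgk1 passed (-0.34, SE 0.0874, edgeR adjusted p = 0.0187), as it did with the block and the correction (-0.3, edgeR adjusted p = 0.0359). Nothing is read from these since the cerebellar contrast chose the list.

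Levels were also compared between animals within a state. After the mean of each group was removed on the log2(CPM + 4) scale, the deviations of an animal in 1 region were set against its deviations in another, for 10 pairs of regions with 14 to 16 shared animals each. The median Pearson correlation over the 10 pairs was 0.83 for Fkbp5 (0.57 to 0.94) and 0.83 for Sgk1 (0.75 to 0.91), which placed them 9 and 10 among all genes, for which the median was 0.01. Tsc22d3 reached 0.74, Nfkbia 0.66, Mt2 0.64, Zbtb16 0.52, Cdkn1a 0.47 and Mt1 0.35. Of the 10 genes, 6 had a median above 0.5, against 0.323% of the 13010 genes for which all pairs could be computed. The medians of Cebpd and Cebpb were 0.1 and -0.1, and Cebpb was positive in 3 of the 10 pairs. Cebpd had -0.69 to -0.03 in the 4 pairs with the hippocampus and -0.03 to 0.56 in the other 6, the highest being hypothalamus and neocortex. The points share the animal, the day of collection and the tissue handling, and the libraries of 1 region were pooled for sequencing, so these are descriptions without a test.

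**Figure D3:**
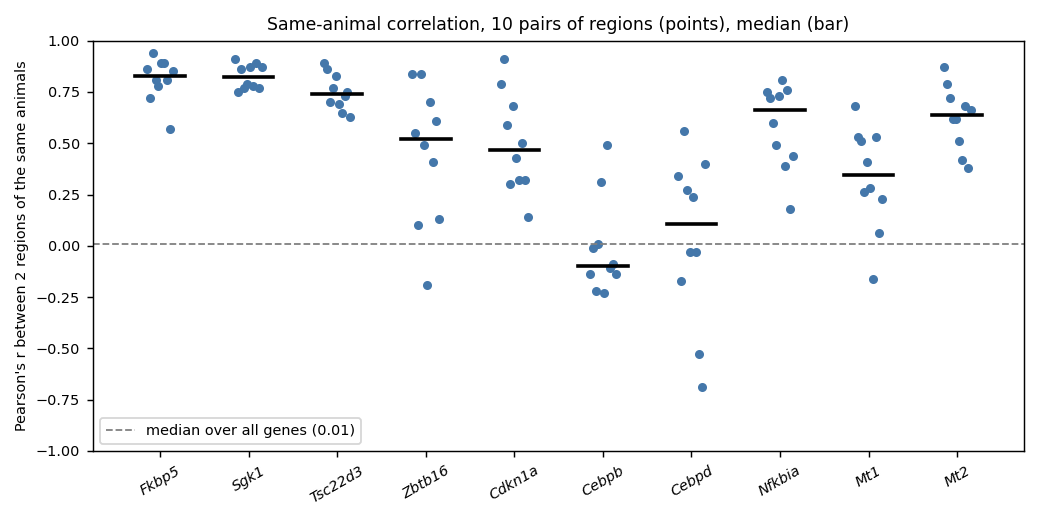
Pearson correlation between 2 regions of the same animals after removal of group means (y axis) for the 10 genes (x axis), with 1 point per pair of regions, a bar at the median, and a dashed line at 0.01, the median over all genes. All 10 points lie above 0 for Fkbp5, Sgk1, Tsc22d3, Cdkn1a, Nfkbia and Mt2, while those of Cebpb and Cebpd scatter around 0.

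Single animals show this pattern. Virgin 4486 had Fkbp5 above its group mean in all 5 regions, by 0.32 to 0.69 on the log2(CPM + 4) scale, and virgin 4487 below it in all 4 of its regions, by values of -0.53 to -0.36. Primiparous 413 and 414 were below their group mean in all 5 regions (-0.64 to -0.19 and -0.47 to -0.14), and primiparous 421 and 425 above it (0.18 to 0.48 and 0.09 to 0.44). Sgk1 followed the animal as closely but ranked the animals differently: primiparous 427 and 415 were highest (0.35 to 0.63 and 0.27 to 0.48), while 421 and 425, high for Fkbp5, were low in all 5 regions (-0.62 to -0.14 and -0.46 to -0.18). An animal lay on 1 side of its group mean in every region it gave for Sgk1 in 11 of 16 animals, for Fkbp5 and Nfkbia in 9, for Tsc22d3 and Mt2 in 7, and for Cebpb and Cebpd in 1 each, where the median over all genes was 1.

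**Figure D4:**
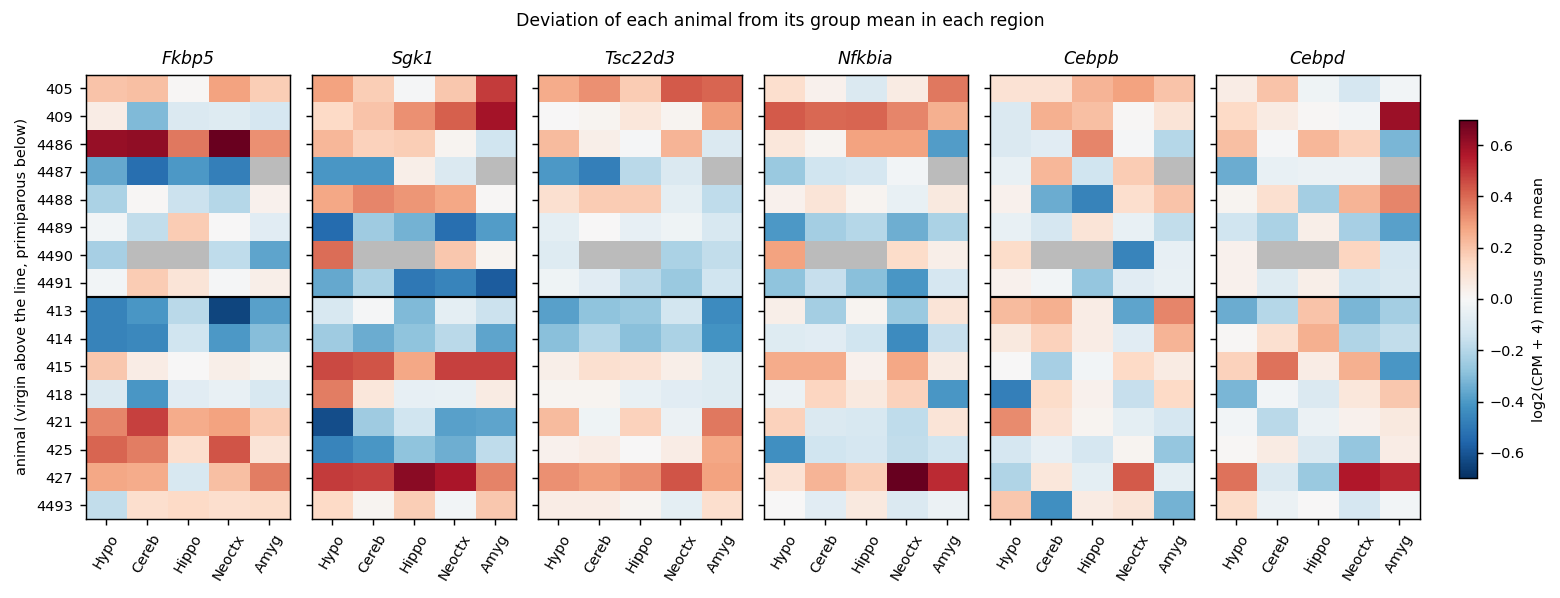
Deviation from the group mean on the log2(CPM + 4) scale (colour, red above and blue below) for each animal (rows, virgin above the line) and region (columns), for 6 of the genes, with grey for libraries not included. Rows of a single colour stand out, as for virgin 4486 in Fkbp5 and primiparous 427 in Sgk1, and are rare for Cebpb and Cebpd.

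The correlations between regions did not rest on 1 animal for Fkbp5 and Sgk1. Leaving out each animal in turn gave medians of 0.79 to 0.86 for Fkbp5 and 0.81 to 0.87 for Sgk1, and without the 2 animals farthest from the middle they were 0.78 and 0.81. For Tsc22d3 and Nfkbia they were 0.75 and 0.53 without the 2 farthest animals. Zbtb16 fell to 0.17 without 421 and 413, Mt2 to 0.27 without 413 and 427, and Mt1 to 0.08 without 427 and 413, so these rest largely on those animals. Without the hippocampus library of animal 413 the medians were 0.83 for Fkbp5 and 0.84 for Sgk1.

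Within the libraries the genes fell into partly separate groups. Over the 77 libraries with group means removed, the 45 pairs had correlations of -0.25 to 0.87 with a median of 0.34, where the median of these genes with all genes was 0.003. Fkbp5 went with Cdkn1a (0.69), Mt2 (0.65), Tsc22d3 (0.59) and Zbtb16 (0.55), and Sgk1 with Nfkbia (0.7) and Tsc22d3 (0.51). Within regions Fkbp5 had 0.3 (amygdala) to 0.91 with Cdkn1a, 0.42 to 0.85 with Mt2, 0.23 (hippocampus) to 0.79 with Tsc22d3 and -0.03 (neocortex) to 0.89 with Zbtb16. Sgk1 had 0.58 to 0.83 with Nfkbia and 0.39 to 0.72 with Tsc22d3. Fkbp5 and Sgk1 were nearly unrelated to each other (0.07), with values of -0.18 to 0.2 within the single regions. Tsc22d3 went with both. Mt1 and Mt2 were the closest pair (0.87, and 0.73 to 0.98 within regions), and Cebpb had values of -0.25 to 0.3 with the rest. Within regions Cebpb varied more, from -0.46 (Zbtb16) to 0.77 (Mt2) in the neocortex, where it had 0.73 with Mt1 and 0.7 with Tsc22d3. The neocortex library of primiparous 427 was far from its group for several of these genes, and without it Cebpb had -0.06 with Zbtb16, 0.65 with Mt2, 0.58 with Mt1 and 0.57 with Tsc22d3, and Fkbp5 had 0.19 with Zbtb16. In the neocortex without that library, Sgk1 had 0.29 with Tsc22d3, against 0.48 with the library, and 0.79 with Nfkbia. Cebpb went down to -0.52 (Fkbp5) in the amygdala.

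**Figure D5:**
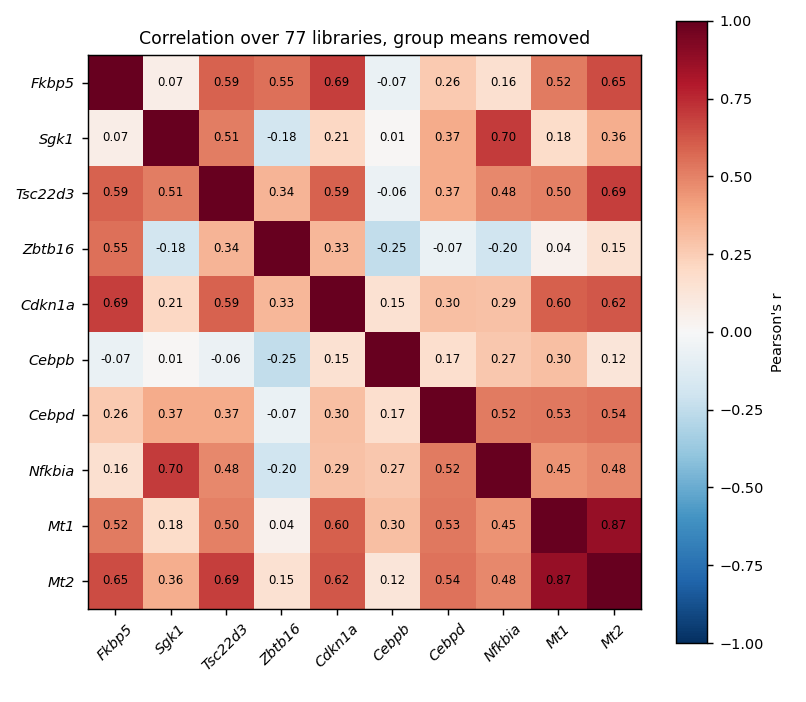
Pearson correlation of each pair of the 10 genes over 77 libraries after removal of group means, as a colour and a number. The row of Cebpb stays between -0.25 and 0.3, while Fkbp5 and Sgk1 join different genes and have 0.07 between them.

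The genes with the most similar deviations, by Pearson correlation over the 77 libraries, were Plin4 (0.84), Mfsd2a (0.7) and Cdkn1a (0.69) for Fkbp5. For Sgk1 they were Arl4d (0.79), Nfkbia (0.7) and Txnip (0.6), for Nfkbia Arl4d (0.71), Sgk1 (0.7) and Arrdc2 (0.7), and for Tsc22d3 Sdc4 (0.76), Gjb6 (0.74) and Plin4 (0.72). Cdkn1a was most like Mfsd2a (0.71), Plin4 (0.69) and Fkbp5 (0.69), and Zbtb16 most like Mertk (0.73), Hif3a (0.71) and Susd6 (0.66). Mt1 had Mt2 (0.87), Rpsa (0.83) and Mt3 (0.8), and Mt2 had Mt1 (0.87), Sult1a1 (0.77) and Sdc4 (0.76). Cebpd was nearest to Lcat (0.61), Pccb (0.58) and Ddit4 (0.56), and Cebpb to C1qtnf4 (0.69), Bmyc (0.66) and Scand1 (0.66). Summed astrocyte markers had a correlation of 0.56 with Mt1, 0.5 with Cebpd, 0.45 with Mt2 and 0.31 with Tsc22d3, summed microglia markers one of 0.48 with Mt1 and 0.41 with Mt2, and summed blood markers one of 0.45 with Mt1 and with Mt2 and of 0.07 to 0.37 with the other 8. Their part in the patterns above was not tested.

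Other genes of the pathway were described from lists written from general knowledge. Among 16 tested genes of the receptor and its cofactors, 3 were higher and 2 lower in the primiparous hypothalamus by edgeR, where 10.8% of all genes were higher and 11.8% lower. Nr3c1 itself fell from 134 ± 12.4 to 117 ± 11.8 CPM (SD, n = 8 each), a log2 difference of -0.21 (SE 0.0655, edgeR adjusted p = 0.0234), with all 8 primiparous libraries below the virgin mean. The adjusted p of Nr3c1 was 0.0507 to 0.0524 without virgin 4487, 4489 or 4490, and below the threshold without each of the other 13 animals. It was 0.505 with the animal number series in the fit and 0.0717 in the fit of 10 groups. With the correction for gene length and GC content the log2 difference of Nr3c1 was -0.02 (edgeR adjusted p = 0.813). Nr3c2 had 23.6 ± 1.87 and 21.4 ± 1.8 CPM and did not pass (edgeR adjusted p = 0.105). Of the chaperones that fold the receptor, Fkbp4, which acts against Fkbp5, rose by 0.28 (SE 0.0543, edgeR adjusted p = 0.00208) and Hsp90ab1 by 0.15 (SE 0.0374), while Hsp90aa1 fell by 0.18 (SE 0.0516).

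Of 22 other genes known to be induced by glucocorticoids, 0 were higher and 4 lower in the primiparous hypothalamus, beside 10.8% and 11.8% of all genes, with a median log2 difference of -0.12. Klf9, a transcription factor, fell from 109 ± 9.78 to 94.8 ± 11.2 CPM (SD, n = 8 each), Errfi1, an inhibitor of the EGF receptor, from 37.1 ± 3.61 to 31.7 ± 3.32, Pdk4, a kinase of pyruvate dehydrogenase, from 12 ± 1.73 to 9.23 ± 1.98, and Mertk, a receptor for dying cells and debris, from 30.1 ± 5.01 to 23.8 ± 6.38. Their log2 differences were -0.22, -0.24, -0.39 and -0.37. With 1 animal left out in turn, Klf9 and Errfi1 passed in 15 of 16 fits, Pdk4 in 10 (highest edgeR adjusted p = 0.0701, without virgin 405) and Mertk in 5 (0.0975, without primiparous 414); Klf9 missed without primiparous 414 and Errfi1 without virgin 4491. Of the same 22 genes, 3 had a median correlation between regions above 0.5, namely Txnip (0.72), Arrdc2 (0.59) and Sult1a1 (0.52), and the median over the list was 0.26. Per1, the clock gene on this list, had 0.26.

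The counts for the families of the 10 genes stand beside 22.6% of all genes past the threshold in the hypothalamus and 37.1% with an unadjusted p under 0.05. Ddit3 of the C/EBP family was higher (log2 difference 0.34, SE 0.088) and Cebpz lower (-0.16, SE 0.0548) among 6 tested in the hypothalamus, Cebpb and Cebpd included. Slc30a1, a zinc exporter, was lower (-0.27, SE 0.0762) among 5 metallothionein and zinc genes that include Mt1 and Mt2. Of the genes around Cdkn1a, Cdkn1c was higher (0.49, SE 0.158) and Ccng1 lower (-0.4, SE 0.0879) among 7, and of 9 FK506-binding proteins Fkbp2 (0.22, SE 0.0711), Fkbp4 and Fkbp8 (0.26, SE 0.0733) were higher and Fkbp3 lower (-0.22, SE 0.0599). Of 11 NF-kappaB genes, Nfkbia included, and of 7 SGK and TSC22 genes, Sgk1 and Tsc22d3 included, 0 passed in the edgeR fit of the hypothalamus and 2 in each list had an unadjusted p under 0.05. Sgk1 passed with limma-voom, with DESeq2, with limma-trend and in the edgeR fit of 10 groups. With 1 animal left out in turn, Cdkn1c passed in 11 of 16 fits (highest edgeR adjusted p = 0.0617, without virgin 4488), Cebpz in 10 (0.082, without virgin 4490) and Fkbp2 in 9 (0.0615, without primiparous 413). Ddit3, Slc30a1, Ccng1, Fkbp3, Fkbp4 and Fkbp8 passed in all 16. In these lists 17 genes were past the threshold in the edgeR fit of the hypothalamus; 0 of them were with the animal number series in the fit, and 3 (Ddit3, Fkbp4 and Hsp90ab1) were with the correction for gene length and GC content. In the fit of 10 groups 10 of the 17 passed, and Fkbp2, Fkbp3, Hsp90aa1, Cdkn1c, Cebpz and Nr3c1 were among those that did not. In the hippocampus, neocortex and amygdala no gene of these lists passed with edgeR. An unadjusted p under 0.05 was found for 19, 12 and 12 of their 82 tested genes (23.2%, 14.6% and 14.6%), beside 7.38%, 9.8% and 11.9% of all genes. The 82 include genes of the main list, so these counts partly repeat those given above. Sgk1, Cebpd, Nfkbia, Mt1 and Mt2 are among the 19 of the hippocampus, Sgk1 is counted in the neocortex and Cebpb in the amygdala. Without animal 413 the hippocampus count was 16 (19.5%, beside 9.65% of all genes).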

How the data were processed

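RNA was measured in 77 libraries of single-end 100 base reads, each from 1 region of 1 mouse. The study's methods and labels state that polyadenylated RNA was isolated, that NEBNext Ultra libraries were pooled by region for sequencing, that reads were aligned with Hisat2 to mm10, and that featureCounts counted reads that map a single time. In the table the authors deposited, counts of 27179 genes are whole numbers without normalization. The labels list 80 samples, of which 3 virgin libraries are not analysed here; the study's methods state that 1 outlier library each of hippocampus, cerebellum and amygdala was removed. Libraries held 7959192 to 37871854 counts. The authors also deposited a log2 table of 13016 genes, described as log2(CPM + 4). Its values lie a median of 3.94 from log2(CPM + 4) recomputed from the counts, and within 5e-05 of log2 of the count over a size factor plus 4, so they were used only in an alternative.

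CPM is the count scaled to the library total. The 13016 genes that reached 5 CPM in 8 or more libraries were tested within each region by edgeR 4.0.16 (TMM, robust quasi-likelihood F-test, R 4.3.3), with Benjamini-Hochberg adjustment over all of them and a threshold of 0.05. Regions, and differences of the states between regions, were tested in edgeR fits of several groups. Within a region and for animal means, animals served as replicates, and the p-value measures the spread between animals of 1 cohort. In fits of several regions without the animal as a block, the libraries of 1 animal entered as separate replicates. With that block, the p-value measures the spread within animals. The same animals gave all regions, as the labels state, so animal numbers pair the libraries; the deviations of same-animal libraries had a median correlation over all genes of -0.0132 to 0.104 in the pairs of regions, above that of other animals in all but hypothalamus and hippocampus, and the animal was added as a replicate block. Alternatives were limma 3.58.1 (voom and trend), DESeq2 1.42.0, other filters and normalizations, the animal number series, an offset for gene length and GC content (splines with 4 degrees of freedom), 1 fit of 10 groups, and each library left out (for differences between regions each animal, added after the data were seen). Means of 4 regions per animal were tested with limma. Correlations used log2(CPM + 4) with group means removed. Promoters are from RefSeq (GRCm38.p6), and positions and exon lengths from GENCODE on GRCm38, which is mm10.

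The genes and lists were chosen with earlier results of these data known. Genes named are the 10 of the list, up to 5 of each further list with the smallest p and an adjusted p under 0.05 in the hypothalamus, both receptors, and the 3 genes most correlated with each of the 10. One gene that this rule names is not reported here. Marker genes of cell types and regions are named where they bear on a result. On simulated counts of 13016 genes with 200 changed by 1.5-fold, the hypothalamus edgeR fit recovered 87.5% of them, the hippocampus fit 90%, the fit of hypothalamus minus amygdala 56.5% and the limma fit of animal means 98%. The simulated libraries of an animal were drawn independently in each region. The shares for fits over several regions therefore do not carry over to genes that follow the animal across regions, such as Fkbp5 and Sgk1. Figures were drawn with Python and matplotlib.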

Additional observations from a re-analysis of the deposited data

Results flagged for a closer look

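In 4 of 100 sets of values (10 genes in 10 groups of 7 or 8 libraries) the highest library stood apart from the rest of its group by Dixon's criterion, which chance alone does in about 1 of 20 groups. Of these, 3 came from primiparous animal 427: Tsc22d3 at 140 CPM and Mt1 at 442 CPM in the neocortex, and Nfkbia at 39.6 CPM in the amygdala. The neocortex library of this animal also had the highest Mt2 (215 CPM), Nfkbia (48.2 CPM), Cdkn1a (64.5 CPM), Cebpb (17.2 CPM) and Cebpd (9.4 CPM) of the primiparous neocortex, and the lowest Zbtb16 (18.2 CPM). The other value was Zbtb16 at 41.1 CPM in the amygdala of primiparous animal 421.

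The difference between states for Cebpb differed between hypothalamus and amygdala by 0.64 on the log2 scale (edgeR adjusted p = 0.0225, primiparous over virgin 0.2 and -0.44), where 18.2% of all genes passed the same test. With the animal as a block the call was lost (0.61, edgeR adjusted p = 0.0536), and with the block and a correction for gene length and GC content the difference was 0.14 (edgeR adjusted p = 0.81).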

How the results depend on the processing

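In the hypothalamus 0 of the 10 genes passed with edgeR, and 2 (Sgk1 and Cebpd) passed with limma-voom, with DESeq2, with limma-trend on the deposited log2 values or on log2(CPM + 1), and in 1 fit of 10 groups. Of the 13016 genes tested, 2939 passed with edgeR, 2571 with limma-voom and 3317 with DESeq2. With limma-trend 2942 (deposited values) and 3036 (log2(CPM + 1)) passed, and 2189 in the fit of 10 groups. With 1 library left out the count among the 10 genes was 0 to 1, Cebpd passing without primiparous 415 (edgeR adjusted p = 0.0453), 427 (0.0221) or 4493 (0.0431) or virgin 4487 (0.0407). In the cerebellum the count went from 1 (Cebpb) to 0 with the animal number series in the fit, and was 0 to 1 with 1 library left out, 0 without primiparous 413, 414 or 427 or virgin 409, 4486, 4489 or 4491. In the hippocampus it went from 0 to 1 (Mt1) with DESeq2. With the animal as a replicate block, the number of genes whose difference between states differed from that of the hypothalamus went from 0 to 1 against the cerebellum (Sgk1, also 1 with the block and the correction for gene length and GC content), from 0 to 1 against the hippocampus (Mt2, 0 with both) and from 1 to 0 against the amygdala (0 with both). With each animal left out, a choice made after the data were seen, these counts were 0 to 1 against the cerebellum (Cebpb without virgin 409 or primiparous 4493) and 0 to 1 against the amygdala. The cause of these changes was not tested.

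Over all genes, in the hypothalamus 2939 genes passed with edgeR, 385 with the correction for gene length and GC content and 3 with the animal number series. In the cerebellum 92 passed, against 478 with DESeq2, 395 with the correction, 57 with another filter on low counts and 0 with the series, and with 1 library left out the count was 6 (without virgin 4486), 8 (virgin 409), 26 (primiparous 415), 27 (413), 36 (virgin 4487), 42 (primiparous 414), 55 (427), 60 (425), 61 (421), 140 (virgin 4488), 163 (primiparous 418), 179 (virgin 405) or 903 (primiparous 4493). In the hippocampus 0 passed, against 12 with DESeq2 and 6 in the fit of 10 groups, in the neocortex 0 against 6 in that fit, and in the amygdala 0 against 54 with DESeq2, 14 with the series and 142 in that fit. With 1 library left out, 1 gene passed in the hippocampus (without primiparous 425 or 427) and 31 (without primiparous 413) or 2 (without virgin 4486) in the amygdala. The differences of hypothalamus and hippocampus, 2243, came to 1449 with the block, 66 with the block and the correction and 665 in the fit of 10 groups, those of hypothalamus and amygdala, 2373, to 1828 and 93, and those of hypothalamus and cerebellum, 2015, to 1502 and 505, and to 1314 in the fit of 10 groups. With 1 animal left out the hippocampus count was as low as 1153 (virgin 4491), 1213 (virgin 4489), 1258 (primiparous 421) and 1302 (primiparous 414), and the cerebellum count 1032 (virgin 4487), 1070 (virgin 4486), 1083 (virgin 4491), 1154 (primiparous 414) and 1317 (virgin 4489). Cebpd, at 27 to 136 counts per hypothalamus library, had the fewest reads of the genes there.

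Of 1270 comparisons of a gene between the states within a region under an alternative, 1156 kept their direction and side of the threshold, 15 came past it, 8 lost it and 91 changed sign, all of these with the gene short of the threshold on both sides of the comparison. The log2 differences of the other sign were as follows. With the correction for gene length and GC content they were -0.03 for Cebpb in the hypothalamus, -0.103 for Mt2 in the hypothalamus, -0.019 for Cebpb in the neocortex, -0.011 for Mt1 in the neocortex, -0.191 for Mt2 in the neocortex, 0.037 for Cdkn1a in the amygdala and 0.003 for Mt1 in the amygdala. With limma-trend on log2(CPM + 1) they were 0.012 for Zbtb16 in the hypothalamus, 0 for Nfkbia in the hypothalamus, -0.018 for Cebpd in the cerebellum, 0.004 for Fkbp5 in the hippocampus, -0.017 for Cebpd in the neocortex and -0.085 for Mt2 in the neocortex. With limma-voom they were -0.001 for Fkbp5 in the cerebellum, 0.009 for Fkbp5 in the hippocampus, 0.004 for Cebpb in the hippocampus, 0 for Cebpd in the neocortex and -0.053 for Mt2 in the neocortex. With the animal number series they were -0.1 for Cdkn1a in the cerebellum, -0.146 for Cebpd in the cerebellum and 0.061 for Fkbp5 in the hippocampus. With limma-trend on the deposited log2 values they were -0.009 for Cebpd in the cerebellum, 0.014 for Fkbp5 in the hippocampus and -0.044 for Mt2 in the neocortex. With DESeq2 they were 0 for Fkbp5 in the hippocampus. With another filter on low counts they were 0.001 for Fkbp5 in the hippocampus. Ranges with 1 library left out, in the hypothalamus, were -0.124 to 0.049 for Zbtb16, -0.169 to 0.092 for Cdkn1a, -0.097 to 0.045 for Nfkbia and -0.102 to 0.041 for Mt1. In the cerebellum they were -0.025 to 0.216 for Fkbp5, -0.02 to 0.126 for Cdkn1a and -0.098 to 0.087 for Cebpd. In the hippocampus they were -0.059 to 0.07 for Fkbp5. In the neocortex they were -0.125 to 0.142 for Cebpd, -0.167 to 0.056 for Nfkbia, -0.058 to 0.205 for Mt1 and -0.171 to 0.113 for Mt2. In the amygdala they were -0.081 to 0.051 for Tsc22d3, -0.082 to 0.06 for Cdkn1a, -0.082 to 0.049 for Mt1 and -0.06 to 0.111 for Mt2.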
